A study of Mus musculus with 24 samples.

Results

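Cardiomyocyte (CM) nuclei of 14-day-old mice (P14) that lack caspase-2 were compared with control nuclei of the same age. The comparison rests on 6 of the 24 libraries of the series, namely Casp2-depleted (XMLC2+Casp2fl/fl) replicates 2, 3 and 4 and control (XMLC2-Casp2fl/fl) replicates 1, 2 and 4. They were chosen by genotype, age and replicate number. Control replicate 3 and Casp2-depleted replicate 1 were set aside because the study set them aside for low quality.

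The study asked what caspase-2 does in heart muscle nuclei while they leave the cell cycle. It sequenced RNA of PCM1-sorted nuclei at P1, P7 and P14, with 4 pools of hearts for each genotype and age. At P14 each pool held 2 hearts, from mice of either sex on a C57BL/6N background, so 1 library is a pool and not an animal. Both genotypes carry Casp2 alleles flanked by loxP sites, and Cre recombinase, driven by the CM-restricted XMLC2 transgene, is present only in the Casp2-depleted mice. The control mice therefore lack Cre as well as the deletion, and the effect of Cre alone and that of Casp2 loss cannot be told apart in these 6 libraries. PCM1 is a centriolar satellite protein that gathers around CM nuclei, so the sort selects CM nuclei, and cytoplasmic RNA is largely left behind.

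Caspase-2 is a protease that is activated in the PIDDosome, a complex of Pidd1, the adaptor Raidd (gene Cradd) and caspase-2 itself. Extra centrosomes, as arise when a cell duplicates its DNA but does not divide, activate it, and one known outcome is cleavage of Mdm2 and a rise of p53. Mouse CMs stop dividing and become polyploid in the first weeks after birth. Over the same weeks they exchange fetal forms of contractile proteins for adult ones, among them slow skeletal troponin I (Tnni1) for cardiac troponin I (Tnni3).

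The 6 libraries were shallow and patchy. They held 891817 to 1278961 reads on genes, and 7628 to 13651 genes had at least 1 read. Where a gene had 20 or more reads in another replicate of its group, 32.1% of the values were 0 in the control group and 28.2% in the Casp2-depleted group. For the fold limits below, a count of 0 was read as up to 3 reads. Such limits cover counting error only and not the zeros between replicates just given, so they do not bound the level in the nuclei. Molecular identifiers are also not named in the sources used here. The 2 libraries set aside were sparser, with 2049 genes in control replicate 3 and 4285 in Casp2-depleted replicate 1.

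The deletion itself could not be checked. Casp2 had 0 reads in all 6 libraries, and at P7 it had 9 reads over 4 control libraries and 8 over 4 Casp2-depleted libraries. The CM markers Ttn, Myh6, Tnnt2, Ryr2, Myl2 and Tnni3 had reads in each library, which does not measure how pure the sort was. In the sections that follow, reads and CPM (counts scaled to a common library size) are listed in the order of control replicates 1, 2 and 4 and of Casp2-depleted replicates 2, 3 and 4. CPM of single genes are scaled by edgeR's TMM factors, and a ± after a CPM is the SD over 3 libraries. A log2 fold change is Casp2-depleted over control, and the ± after it is its standard error. Where the lower group had 0 reads, the fold, written as at least a value, is a limit for counting error only, set by 3 reads over that group. Where it had 1 to 3 reads, the ratio of the higher to the lower group in pooled CPM is given with its 95% counting interval in square brackets. Adjusted p values are edgeR's, after Benjamini-Hochberg, over all genes tested.

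Of 20368 genes tested by quasi-likelihood in edgeR, 34 passed an adjusted p of 0.05 and a log2 fold change of 1 in size, or 0.167%. In Casp2-depleted nuclei 6 of them were higher (0.0295%) and 28 lower (0.137%). At an unadjusted p of 0.05, 1286 genes were higher (6.31%) and 1327 lower (6.52%), so both directions were about even before adjustment. In 1049 genes (5.15%) the 3 values of 1 group all lay above the 3 of the other, with 613 higher (3.01%) and 436 lower (2.14%) in Casp2-depleted nuclei. Most called genes were thinly read, and only 6 of the 34 had reads in every library.

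These calls lean on the spread estimated over all 21 libraries that the study kept at the 3 ages. A fit of the 6 P14 libraries alone called 1 gene of 11334 tested. That gene, an unnamed Ensembl gene with 2855, 215 and 377 against 356, 40 and 93 reads, was not among the 34. Of the 34, 23 were tested in that fit and 11 had an unadjusted p below 0.05, but their smallest adjusted p was 0.9999. With all 8 P14 libraries 0 genes were called, at 307 with an unadjusted p below 0.05. With the replicate number as a block, 13 were called, and 9 of these were among the 34. DESeq2 called 662 genes, 31 of them among the 34, while limma-voom called 116 after TMM and 148 after quantile scaling, each with 3 of the 34.

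Control replicate 1 carried much of the downward list. It had the highest CPM of the 6 libraries in 24 of the 28 lower genes, and 7 of the 28 had reads in no other control library. Without it 19 genes were called, 12 higher and 7 lower, of which 6 were among the 34: Tnni1, Grb10, Gpatch11, Pdgfa, Cul4a and the long noncoding RNA 5430431A17Rik. The last of these was called in all 6 fits that left out 1 P14 library, the only gene to be so.

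**Figure D1:**
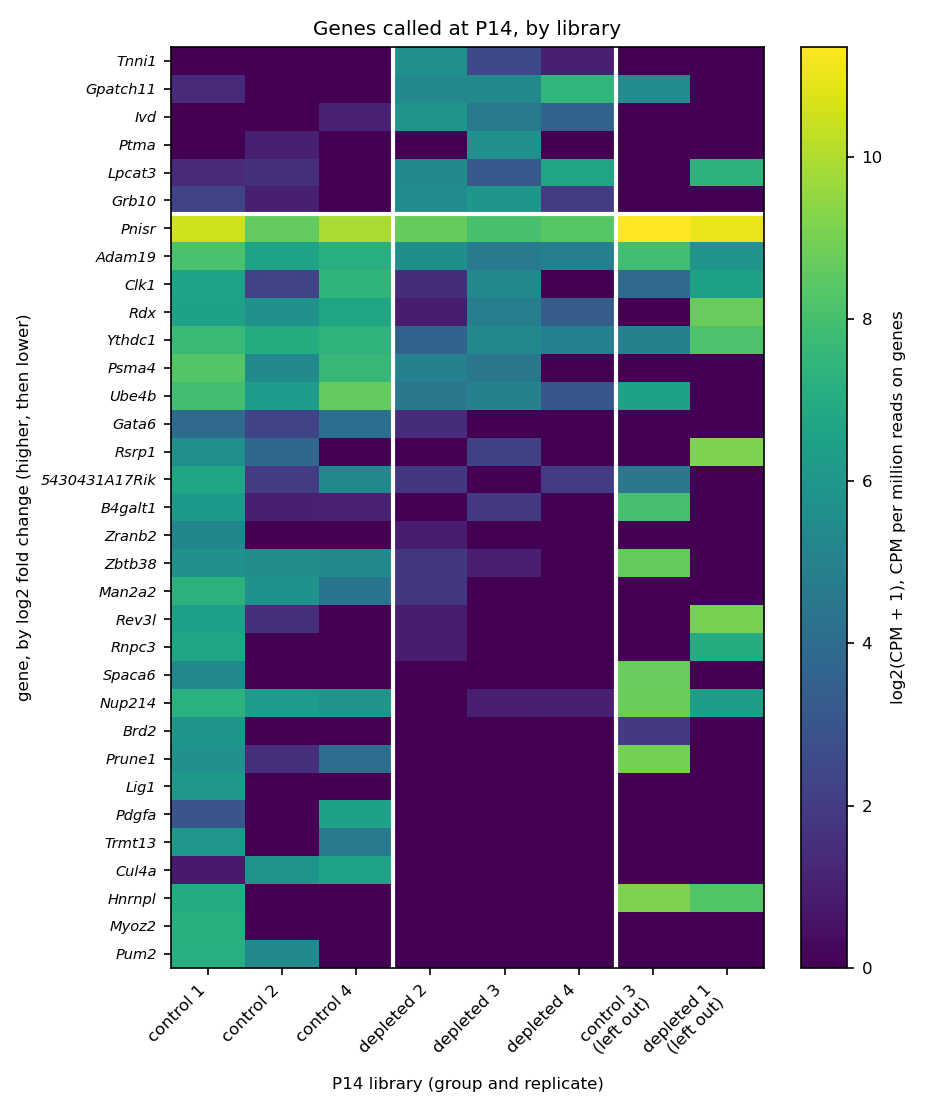
Heat map of log2(CPM + 1), with CPM of the reads on genes, for the called genes named in the text (rows) in the 8 P14 libraries (columns), the 2 libraries that were set aside included. The 6 higher genes are at or near 0 in the 3 controls, and most of the lower genes are brightest, among the 6 libraries compared, in control replicate 1.

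**Figure D2:**
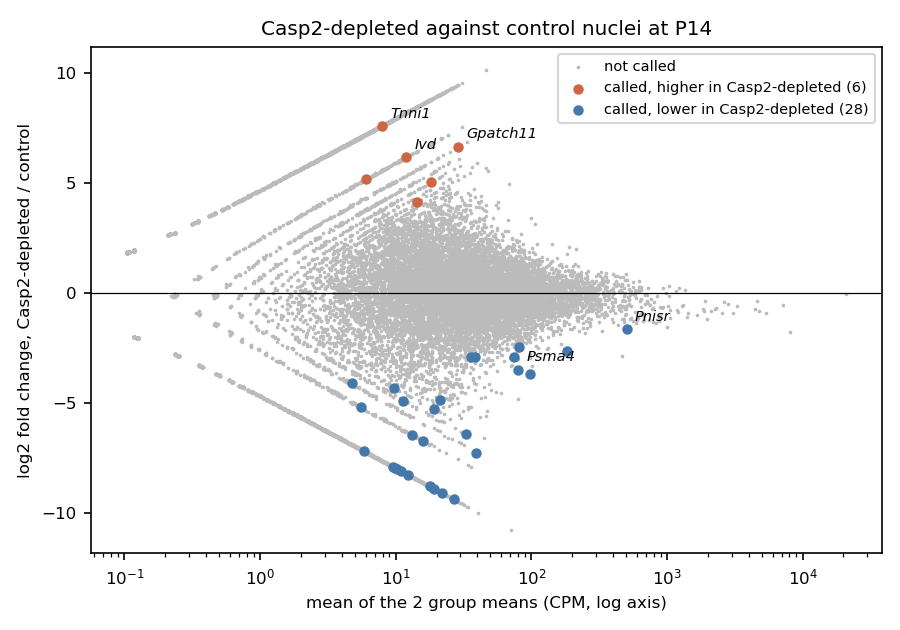
Log2 fold change (Casp2-depleted over control, y axis) against the mean of the 2 group means in CPM (x axis, log scale) for genes with reads in the P14 libraries, with called genes coloured. Called genes sit mostly at low levels, where the fitted fold changes spread widest.

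Tnni1, the slow skeletal troponin I of the fetal heart, had the smallest adjusted p of all genes. It had 0 reads in all 3 control libraries and 62, 5 and 1 in the Casp2-depleted libraries, or 43.6, 3.14 and 0.653 CPM in the latter. Every Casp2-depleted library lay above every control library, but replicate 2 held 62 of the 68 reads and replicate 4 a single one. Set against the limit of 3 reads over the control group, the level was at least 20.3-fold higher (adjusted p = 6.83e-11, and 4.67e-10 with the replicate block). DESeq2 also called it (adjusted p = 7.0e-05). It did not pass with limma-voom after TMM or quantile scaling (adjusted p = 0.71 and 0.106), nor in the edgeR fit of the 6 P14 libraries alone (0.9999). Both libraries that were set aside had 0 reads of it. Without Casp2-depleted replicate 2 it was no longer called.

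The gene lies at chr1:135707172-135738727 of GRCm39. At the younger ages it was abundant in both genotypes, with 928 ± 328 CPM in P1 controls (n = 3) and 922 ± 397 CPM in P1 Casp2-depleted nuclei (n = 4). At P7 the levels were 518 ± 142 CPM (n = 4) and 644 ± 236 CPM (n = 4). The P14 level of 15.8 ± 24.1 CPM in Casp2-depleted nuclei was thus a small remainder of the neonatal one. Its adult counterpart Tnni3 had 808, 47 and 193 against 119, 41 and 280 reads, and its log2 fold change of -1.36 ± 1.01 did not pass the test (adjusted p = 0.652).

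The promoters of this fetal and adult pair are shown because the pair frames the one fetal isoform that was called. They run from 250 bases before to 50 bases after the RefSeq transcription start on GRCm38.p6, 5′ to 3′ on the strand of the gene, and capitals mark each E-box, CANNTG, the letters read by basic helix-loop-helix factors. Tnni1 (chr1:135799171-135799470, plus strand, the first of 2 windows listed) holds 4 and Tnni3 (chr7:4522479-4522778, minus strand) holds 1.
Tnni1: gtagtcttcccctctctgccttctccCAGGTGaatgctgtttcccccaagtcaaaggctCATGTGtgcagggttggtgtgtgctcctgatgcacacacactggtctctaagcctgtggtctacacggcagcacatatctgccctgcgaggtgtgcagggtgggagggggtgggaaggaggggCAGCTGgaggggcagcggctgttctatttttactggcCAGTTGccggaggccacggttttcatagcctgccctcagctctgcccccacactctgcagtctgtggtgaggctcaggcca
Tnni3: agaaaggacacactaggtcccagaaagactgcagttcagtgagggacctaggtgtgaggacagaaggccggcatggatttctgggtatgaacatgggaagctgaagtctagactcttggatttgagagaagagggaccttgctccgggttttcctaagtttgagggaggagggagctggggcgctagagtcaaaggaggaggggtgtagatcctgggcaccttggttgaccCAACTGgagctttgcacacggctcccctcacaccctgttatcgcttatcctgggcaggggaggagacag
An E-box on either strand occurs in 72.1% of the 27025 RefSeq promoter windows and in 17 of the 28 called genes that have a window. Of 3 other motifs searched on both strands, AGATAA occurs in 11.4% of windows, CATTCC in 14.6% and TATAAA in 14.2%. They were found in 0, 1 and 0 of the 28 called genes.

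The other 5 higher genes belong to no single group. Ivd, isovaleryl-CoA dehydrogenase of leucine breakdown, had 0, 0 and 1 reads in the control libraries and 67, 27 and 11 in the Casp2-depleted libraries. The groups did not overlap, and the ratio was 94.2 [16.5 to 3756] (adjusted p = 0.0226). Grb10, an imprinted adaptor of insulin and growth factor receptors, had 5, 1 and 0 reads in the control libraries and 53, 67 and 3 in the Casp2-depleted libraries. Its groups overlapped in part, and the log2 fold change was 4.16 ± 1.03 (adjusted p = 0.0405). Both stayed below 0.05 with the replicate block, at 0.0194 and 0.0438.

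Gpatch11, a G-patch domain protein, had 2, 0 and 0 reads in the control libraries and 47, 44 and 170 in the Casp2-depleted libraries, a ratio of 117 [32.1 to 972] (adjusted p = 0.0253). Lpcat3, which inserts polyunsaturated fatty acids into phospholipids, had 2, 2 and 0 reads in the control libraries and 49, 9 and 102 in the Casp2-depleted libraries, a log2 fold change of 5.08 ± 1.25 (adjusted p = 0.0405). Neither overlapped between the groups, and both lost the call with the replicate block (adjusted p = 0.0574 and 0.0954). Control replicate 3, which was set aside, had 46 reads of Gpatch11, within the range of the Casp2-depleted libraries.

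Ptma, which encodes prothymosin alpha, rested on 1 library, with 0, 1 and 0 reads in the control libraries and 0, 57 and 0 in the Casp2-depleted libraries. Its ratio was 51.1 [8.82 to 2055] (adjusted p = 0.0443, and 0.633 with the block). The gene has many processed copies in the genome, so its reads may be split between copies. Of the genes that fell short of the threshold, those with the smallest p, a group mean of at least 20 CPM and no overlap were Mob1b, Rbm18, Fnip2 and Camsap1.

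These 4 had 0 reads in all controls and reads in every Casp2-depleted library. Rbm18, an RNA-binding protein, had 22, 175 and 230 reads, at least 128-fold more (adjusted p = 0.0663). Mob1b, a coactivator of Hippo pathway kinases, had 110, 28 and 3 reads (adjusted p = 0.0613). Fnip2, a folliculin partner, and Camsap1, which binds microtubule minus ends, had 8, 82 and 31 and 7, 69 and 30 reads (adjusted p = 0.0720 and 0.0948). None of the 4 passed the test.

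The 28 lower genes are described by function. Of those that act in RNA processing 3, Hnrnpl, Clk1 and Rsrp1, are in a list of 92 tested splicing genes. Clk1, a kinase of SR splicing proteins, had 120, 4 and 153 reads in the control libraries and 2, 41 and 0 in the Casp2-depleted libraries. Casp2-depleted replicate 3 lay above control replicate 2, so the groups overlapped, and the log2 fold change was -2.88 ± 0.72 (adjusted p = 0.0417). Rsrp1, an arginine- and serine-rich protein, had 65, 13 and 0 against 0, 4 and 0 reads, a log2 fold change of -4.31 ± 1.04 (adjusted p = 0.0355). The set-aside Casp2-depleted replicate 1 had 828 reads of Rsrp1, more than any control, and 126 of Clk1. Hnrnpl, a regulator of exon choice, had 162, 0 and 0 reads in the control libraries and 0 in all 3 Casp2-depleted libraries (at least 60.2-fold lower, adjusted p = 0.0247). It was read in 1 control library only, and the libraries that were set aside had 597 and 447 reads of it, in the control and the Casp2-depleted one.

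Another 6 genes that act on RNA were called outside that list. Of these Ythdc1, Pnisr, Rnpc3 and Zranb2, like Spaca6, Rev3l, Zbtb38, B4galt1, Ube4b, Rdx and Adam19 below, are named because they were called, after their values had been seen. Ythdc1, a nuclear reader of methylated adenosine in RNA, was lower with no overlap, at 132 ± 44.1 CPM in the controls and 17.5 ± 8.03 CPM in the Casp2-depleted group. Its reads were 259, 135 and 149 against 13, 40 and 28 reads, and the log2 fold change was -2.91 ± 0.69 (adjusted p = 0.0312, and 0.0247 with the block). All 6 libraries had reads, and Casp2-depleted replicate 1, which was set aside, held 420 reads. Pnisr, an SR-related protein and the most-read called gene, had 1911, 406 and 857 reads in the control libraries and 482, 287 and 329 in the Casp2-depleted libraries. Its groups overlapped, since control replicate 2 lay below Casp2-depleted replicate 2, and the log2 fold change was -1.65 ± 0.41 (adjusted p = 0.0493).

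The rest of this group was read in 1 or 2 control libraries. Rnpc3, a protein of the minor spliceosome, had 135, 0 and 0 against 1, 0 and 0 reads and a ratio of 150.4 [26.5 to 5986]. The set-aside Casp2-depleted replicate 1 had 187 reads of Rnpc3, more than any control. Zranb2, a zinc-finger splicing protein, had 46, 0 and 0 against 1, 0 and 0 reads and a ratio of 51.3 [8.75 to 2068]. Pum2, a Pumilio protein that represses translation, is among the 10 called genes with the largest fitted fall and had 183, 42 and 0 reads in the controls and none in Casp2-depleted nuclei (at least 83.6-fold lower). Trmt13, a transfer RNA methyltransferase, had 83, 0 and 21 reads in the controls and likewise none (at least 38.6-fold lower). Their adjusted p values were 0.0132, 0.0316, 0.0299 and 0.0417, and all 4 rose above 0.05 with the replicate block.

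The next 3 lower genes act in protein breakdown, a grouping made after they were called and not a tested list. Psma4, an alpha subunit of the 20S proteasome at chr9:54858066-54866448 of GRCm39, had 402, 43 and 168 reads in the control libraries and 35, 24 and 0 in the Casp2-depleted libraries. Every control lay above every Casp2-depleted library in CPM, at 148 ± 127 CPM in the controls and 13.2 ± 12.4 CPM in the Casp2-depleted group. The log2 fold change was -3.47 ± 0.67 (adjusted p = 0.000826, and 0.00446 with the block).

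Ube4b, a ubiquitin ligase that extends chains, had 307, 78 and 353 reads in the control libraries and 25, 33 and 7 in the Casp2-depleted libraries, without overlap (log2 fold change -3.65 ± 0.90, adjusted p = 0.0405). Cul4a, the scaffold of a cullin ubiquitin ligase, had 1, 59 and 82 reads in the control libraries and 0 in all 3 Casp2-depleted libraries (at least 52.8-fold lower, adjusted p = 0.0405). It was one of the 4 lower genes that did not peak in control replicate 1, and there a single read kept the groups from touching. The block took both above 0.05, to 0.397 and 0.120.

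Pdgfa, the ligand that signals through platelet-derived growth factor receptor alpha, had 9, 0 and 79 reads in the control libraries and 0 in all 3 Casp2-depleted libraries. Control replicate 4 held most of its reads and replicate 2 none, so the groups touched at 0. Against the limit of 3 reads it was at least 32.7-fold lower (adjusted p = 0.000826, and 0.0194 with the block). It was not called without control replicate 4.

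Other lower genes of the cell surface and secretory pathway followed. Adam19, a membrane metalloprotease of the developing heart, had 348, 99 and 123 reads in the control libraries and 57, 27 and 27 in the Casp2-depleted libraries, without overlap (log2 fold change -2.46 ± 0.60, adjusted p = 0.0355). Rdx, which encodes radixin and ties actin to the membrane, had 115, 54 and 93 reads in the control libraries and 1, 30 and 9 in the Casp2-depleted libraries, also without overlap (-2.90 ± 0.69, adjusted p = 0.0316, and 0.0194 with the block). The set-aside Casp2-depleted replicate 1 had 610 reads of Rdx, more than any control. Of the Golgi enzymes of N-glycan processing, Man2a2, a mannosidase, had 198, 55 and 18 against 3, 0 and 0 reads (ratio 101 [34.1 to 491], adjusted p = 0.00906). B4galt1, a galactosyltransferase, had 91, 1 and 1 against 0, 3 and 0 reads, of which control replicate 1 held nearly all (ratio 34.5 [11.5 to 171], adjusted p = 0.0312).

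Of the genes that act on DNA and chromatin, Lig1, DNA ligase I of replication and repair, had the second smallest adjusted p overall. Its reads were 87, 0 and 0 in the controls and 0 in every Casp2-depleted library (at least 32.3-fold lower, adjusted p = 2.83e-05, and 0.0293 with the block). The call thus rested on control replicate 1 alone, and both set-aside libraries had 0 reads. Rev3l, the catalytic subunit of DNA polymerase zeta, had 109, 2 and 0 against 1, 0 and 0 reads (ratio 124 [21.7 to 4930], adjusted p = 0.0473). The set-aside Casp2-depleted replicate 1 had 755 reads of Rev3l, more than any control. Brd2, a bromodomain protein, had 81, 0 and 0 against 0, 0 and 0 reads (at least 30.1-fold lower, adjusted p = 0.0497).

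Nup214, a nuclear pore protein, and Zbtb38, a zinc-finger protein that binds methylated DNA, were spread more evenly over the controls. Nup214 had 195, 78 and 51 reads in the control libraries and 0, 1 and 1 in the Casp2-depleted libraries, a ratio of 181 [49.6 to 1497] (adjusted p = 0.0299). The libraries that were set aside had 470 reads of it in the control and 119 in the Casp2-depleted one, the latter within the range of the controls. Zbtb38 had 67, 49 and 37 reads in the control libraries and 3, 1 and 0 in the Casp2-depleted libraries, a log2 fold change of -5.25 ± 1.33 (adjusted p = 0.0497). Neither overlapped, yet both were above 0.05 with the block (0.118 and 0.172).

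The remaining called genes outside the heart lists were 5430431A17Rik, Prune1 and Spaca6. 5430431A17Rik, a long noncoding RNA at chr7:44122922-44135599 of GRCm39, had 135, 3 and 34 reads in the control libraries and 3, 0 and 3 in the Casp2-depleted libraries. The groups did not overlap, but the gap was narrow, since control replicate 2 had 2.24 CPM and Casp2-depleted replicate 2 2.11 CPM. The log2 fold change was -4.86 ± 0.90 (adjusted p = 0.00167, and 0.0286 with the block). Prune1, a phosphoesterase, had 67, 2 and 14 reads in the control libraries and 0 in all 3 Casp2-depleted libraries (at least 30.8-fold lower, adjusted p = 0.0226). Spaca6, known for its part in sperm and egg fusion, had 50, 0 and 0 reads in the control libraries and 0 in all 3 Casp2-depleted libraries (at least 18.6-fold lower, adjusted p = 8.35e-05). It was read in control replicate 1 alone, and its adjusted p with the block was 0.0956.

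In most lists of heart muscle genes the median lay below 0, while few members passed the test. Across 33 gene lists, 8 different members were called, where 0.167% of all genes tested were. Among them were Tnni1, Myoz2, Gata6, Lig1, Hnrnpl, Clk1 and Rsrp1. DESeq2 called 48 members and limma-voom 8 after TMM and 10 after quantile scaling. Of all genes tested, 0.0295% were called higher and 0.137% lower, and at an unadjusted p of 0.05, 6.31% were higher and 6.52% lower. These are the shares beside which the list counts below stand. The median log2 fold change over all 20368 genes was 0, and over the 3668 genes with reads in all 6 libraries it was -0.11. Genes with 0 reads in the P14 libraries of an edgeR fit have a fitted value of 0, so a list median of 0 can come from them. Over the 17383 genes with P14 reads the median was 0.05. Genes read at a higher level lay lower. Among 106 genes with a mean of at least 500 CPM the median was -0.54 with 76.4% lower, against -0.11 with 56.1% lower among 1443 genes with at least 100 CPM.

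**Figure D3:**
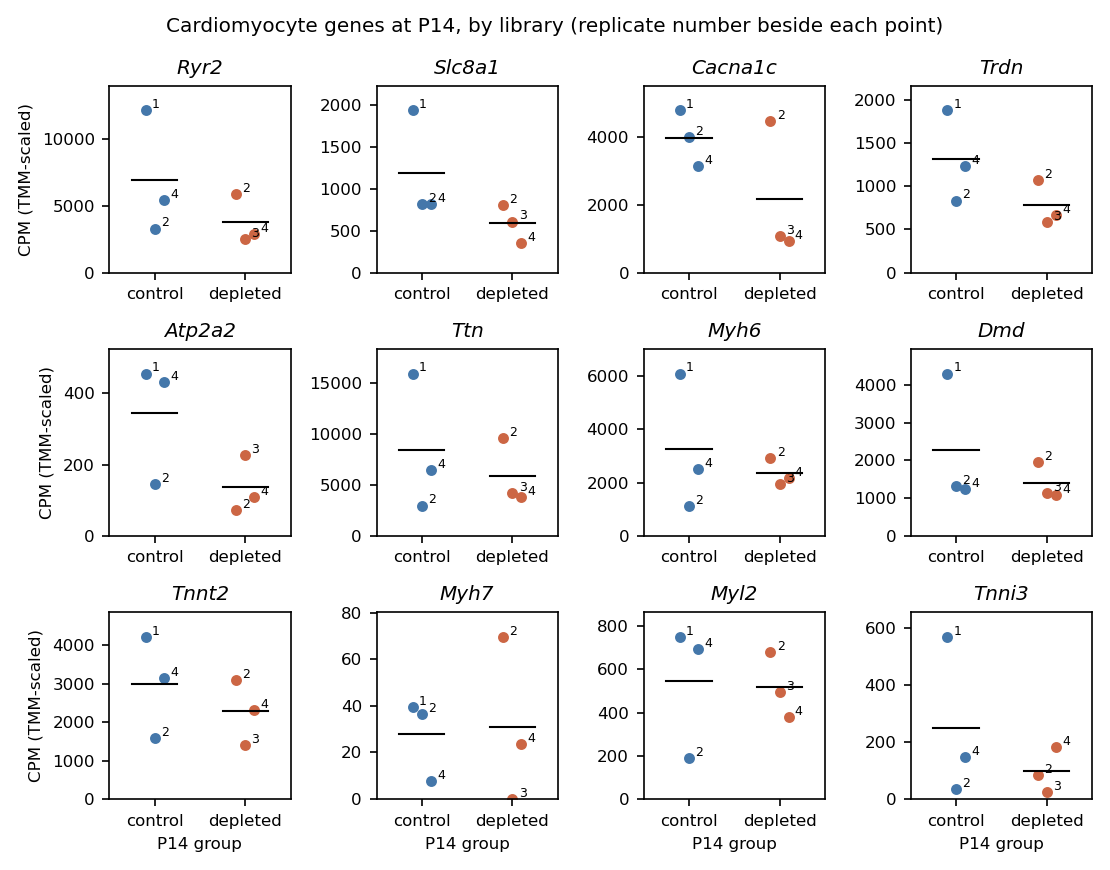
CPM with TMM factors (y axis, linear from 0) of 12 heart genes in the 3 control and 3 Casp2-depleted P14 libraries. Numbers mark replicates and lines the group means. Control replicate 1 is highest in most panels, and the groups overlap in all of them except Slc8a1.

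In the titin, Z-disc and M-band list, 38 genes were tested and 1 was called lower, where 0.137% of all genes tested were. At an unadjusted p of 0.05 there were 5 higher and 9 lower. The called gene was Myoz2, the calcineurin-binding Z-disc protein calsarcin-1. It had 187, 0 and 0 reads in the control libraries and 0 in all 3 Casp2-depleted libraries (at least 69.5-fold lower, adjusted p = 0.0299), and so hung on control replicate 1. The median of the list was -0.66, and 0 without that library, where Myoz2 has no reads left and a fitted value of 0. Ttn, the giant spring of the sarcomere, had 22556, 3969 and 8524 reads in the control libraries and 13641, 6647 and 5845 in the Casp2-depleted libraries, a log2 fold change of -0.53 ± 0.91 that did not pass (adjusted p = 1.00). Nexn and Palld, which bind actin at the Z-disc, had log2 fold changes of -1.53 ± 0.55 and -0.91 ± 0.35 (adjusted p = 0.363 and 0.365).

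Of 28 calcium handling genes tested, 0 were called by edgeR. Of the 27 with reads, 19 had a fitted value below 0 and 8 above, where 8488 of all 17383 genes with reads were below and 8895 above. At an unadjusted p of 0.05, 8 were lower and 0 higher, where 6.52% of all genes tested were lower and 6.31% higher. Without overlap 5 were lower, where 2.14% of all genes were. The median was -0.62, and -0.23 without control replicate 1. Slc8a1, the sodium-calcium exchanger, had 2744, 1094 and 1081 reads in the control libraries and 1148, 968 and 537 in the Casp2-depleted libraries, and every Casp2-depleted value lay below every control value in CPM, although the lowest control, at 818 CPM, and the highest Casp2-depleted library, at 807 CPM, nearly met (log2 fold change -1.02 ± 0.36, adjusted p = 0.349). Cacnb2, a beta subunit of the L-type calcium channel, had 2008, 854 and 1014 against 843, 545 and 448 reads, also without overlap (-1.20 ± 0.43, adjusted p = 0.349).

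The other large calcium genes overlapped between groups. Ryr2, the calcium release channel, had 12108, 3288 and 5407 CPM in the controls and 5860, 2523 and 2895 CPM in Casp2-depleted nuclei (log2 fold change -0.88 ± 0.32, adjusted p = 0.349). Cacna1c, the pore of the L-type channel, had 6793, 5354 and 4147 against 6356, 1720 and 1425 reads (-0.88 ± 0.33, adjusted p = 0.363). In Cacna1c, Casp2-depleted replicate 2 sat within the controls, while replicates 3 and 4 sat below them. The same was true of Palld and of the transcription factor Myocd, with 4702, 3130 and 3238 against 4434, 667 and 1572 reads.

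Among 37 tested voltage-gated ion channel genes, 2 were higher and 6 lower at an unadjusted p of 0.05. The median of the list was -0.08, and -0.26 over the 33 genes with reads, where all genes gave 0 and 0.05.

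Of 24 cardiac transcription factors, 22 had reads, with a fitted value below 0 in 19 and above in 3. Of all 17383 genes with reads, 8488 lay below 0 and 8895 above. In this list 1 gene was called lower, where 0.137% of all genes tested were. The median was -0.57, and -0.08 without control replicate 1. The called gene was Gata6, a zinc-finger factor of heart development, with 18, 4 and 15 reads in the control libraries and 2, 0 and 0 in the Casp2-depleted libraries. Its groups did not overlap, at few reads in each library (ratio 20.6 [5.32 to 177], adjusted p = 0.0405, and 0.172 with the block). Of the list, 3 genes were lower and 0 higher at an unadjusted p of 0.05.

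Of 92 genes in the splicing list, the longest of the lists, 3 were called lower, where 0.137% of all genes tested were, with 5 higher and 14 lower at an unadjusted p of 0.05. Its median was -0.63, and 0 without control replicate 1, where genes left without reads, such as Hnrnpl, have a fitted value of 0. Rbfox1, a muscle and neuron splicing regulator, had 1715, 1327 and 1757 reads in the control libraries and 834, 1241 and 498 in the Casp2-depleted libraries. It did not overlap between groups in CPM, with a log2 fold change of -1.06 ± 0.44 that did not pass (adjusted p = 0.379). Rbm20, the regulator of titin splicing, had 4897, 1214 and 1789 against 2122, 1004 and 954 reads (-1.06 ± 0.38, adjusted p = 0.352), and Rbm25 and Luc7l3 had log2 fold changes of -0.72 ± 0.35 and -0.34 ± 0.37, neither of which passed.

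**Figure D4:**
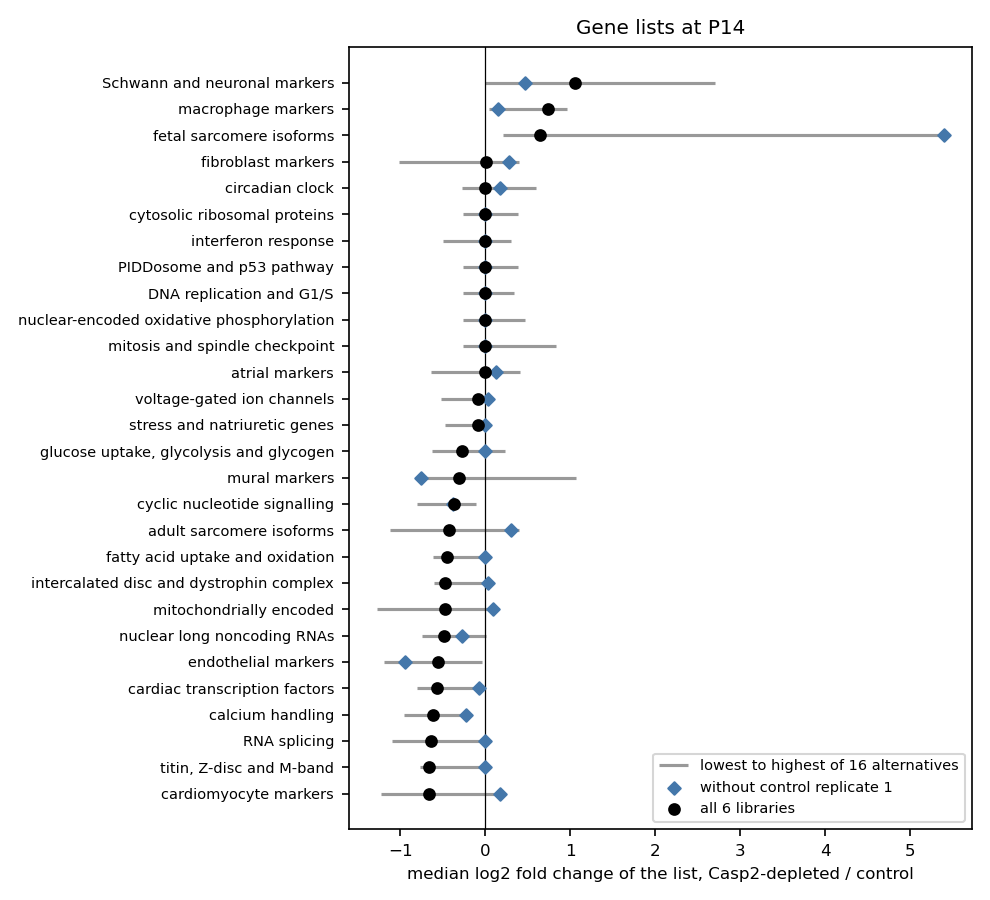
Median log2 fold change (x axis) of 28 gene lists (rows) at P14. Grey bars run from the lowest to the highest of 16 alternative settings, and diamonds give the median without control replicate 1. The RNA splicing median moves from -0.63 to 0 when that library is left out, where genes left without reads have a fitted value of 0.

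The exchange of sarcomere isoforms was followed by 8 fetal and 8 adult members. In the fetal list Tnni1 was called higher, where 0.0295% of all genes tested were. Of its members, 3 were higher and 0 lower at an unadjusted p of 0.05, with a median of 0.64. Without control replicate 1 that median was 5.39, a size that depends on the prior count where controls had 0 reads. The other 2 were Myl4 and Myl7, the atrial light chains that the fetal ventricle also uses. Myl4 had 0 reads in all 3 control libraries and 0, 20 and 43 in the Casp2-depleted libraries and Myl7 0 reads in all 3 control libraries and 0, 62 and 0 in the Casp2-depleted libraries (adjusted p = 0.379 and 0.388). Both were read in Casp2-depleted libraries other than the one that held most of Tnni1.

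The other fetal members showed no such split. Tnnt1, slow skeletal troponin T, had 146, 4 and 0 against 59, 16 and 0 reads, and Myh7, the fetal heavy chain, had 56, 49 and 10 against 99, 0 and 36 reads (log2 fold change 0.15 ± 0.92). Acta1, skeletal alpha-actin, had 0 reads in all 6 libraries. Of the adult list 0 of 8 were called by edgeR and 0 had an unadjusted p below 0.05, with a median of -0.43 that became 0.30 without control replicate 1. Myh6, the adult heavy chain, had 8647, 1508 and 3336 reads in the control libraries and 4141, 3116 and 3344 in the Casp2-depleted libraries (-0.47 ± 0.67), Actc1, cardiac alpha-actin, had 73, 10 and 18 against 71, 73 and 17 reads, and Tnnt2 and Myl2 had log2 fold changes of -0.39 ± 0.31 and -0.07 ± 0.42.

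Energy genes gave 0 called members by edgeR in 4 lists. Of 75 nuclear genes of oxidative phosphorylation, 7 were higher and 8 lower at an unadjusted p of 0.05. Their median was 0, with 15 genes unread in both groups, and -0.54 over the 60 with reads. Fatty acid uptake and oxidation had 3 higher and 6 lower of 48, with a median of -0.45 (-0.49 over the 45 with reads). Glucose uptake, glycolysis and glycogen had 2 higher and 4 lower of 33, with a median of -0.28 (-0.34 over the 31 with reads). Over all members, the fatty acid and glucose medians were 0 without control replicate 1, where genes left without reads count as 0. Of 8 mitochondrially encoded genes none passed in either direction. Ppara, a driver of fatty acid oxidation, had 1907, 1413 and 1338 against 2285, 590 and 331 reads (-0.64 ± 0.47, adjusted p = 0.610).

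The genes that connect and signal to CMs were also without a called member. Of 35 intercalated disc and dystrophin complex genes, 1 was higher and 5 lower at an unadjusted p of 0.05, with a median of -0.48 that became 0.03 without control replicate 1. Ctnna3, alpha-T-catenin, had 4828, 2296 and 2730 against 2822, 1831 and 1507 reads (-0.80 ± 0.36, adjusted p = 0.388), and Dmd, dystrophin, had 6106, 1760 and 1628 against 2794, 1804 and 1645 reads (-0.72 ± 0.38, adjusted p = 0.391). Of 32 cyclic nucleotide genes, 3 were lower and 0 higher, with Pde1c, a phosphodiesterase, at 1257, 1080 and 870 against 1029, 236 and 189 reads (-1.24 ± 0.48, adjusted p = 0.365). Among 16 nuclear long noncoding RNAs, Malat1, a speckle RNA, had 40345, 3400 and 7987 against 8920, 2344 and 5028 reads, and most of the difference sat in control replicate 1 (-1.75 ± 0.91, adjusted p = 0.406).

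The pathway of caspase-2 itself was barely read. Of 22 tested PIDDosome and p53 pathway genes 15 had any read, 0 were called by edgeR, and 1 was higher and 1 lower at an unadjusted p of 0.05. Casp2, Pidd1, Cdkn1a, Bax, Sesn2, Btg2 and Gdf15 had 0 reads in all 6 libraries. Cradd, which encodes Raidd, had 126, 94 and 0 reads in the control libraries and 110, 136 and 8 in the Casp2-depleted libraries (log2 fold change 0.08 ± 0.84).

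The p53 regulators and targets with reads did not move as one. Mdm4, an inhibitor of p53, had 25, 80 and 92 against 35, 14 and 0 reads (-2.13 ± 0.81, adjusted p = 0.363), and Mdm2 had 36, 154 and 88 against 67, 56 and 0 reads (-1.33 ± 1.22, adjusted p = 0.767). Trp53 had 1, 0 and 10 reads in the control libraries and 0 in all 3 Casp2-depleted libraries. Of the targets, Ccng1 had 0, 39 and 7 against 209, 70 and 16 reads (2.54 ± 1.58, adjusted p = 0.476), Sesn1 176, 114 and 25 against 60, 254 and 274 reads (0.74 ± 0.80) and Zmat3 0, 0 and 0 against 0, 40 and 0 reads (adjusted p = 0.388). All of these overlapped between groups.

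Cell cycle lists held about as many higher as lower genes at an unadjusted p of 0.05. Of 56 genes of mitosis and the spindle checkpoint, 0 were called by edgeR, with 4 higher and 4 lower at that p. Their median was 0, and 0.25 over the 44 with reads. Nusap1, a spindle protein, had 0, 156 and 0 against 79, 172 and 156 reads and Anln, a cytokinesis protein, 65, 162 and 122 against 176, 48 and 140 reads. Of 62 genes of DNA replication and G1/S, Lig1 was called lower, where 0.137% of all genes tested were. At an unadjusted p of 0.05, 3 were higher and 5 lower, with a median of 0, and of -0.20 over the 48 with reads. Ccnd3 and Cdk6, which drive the start of the cycle, had 72, 129 and 228 against 209, 233 and 140 reads and 283, 100 and 53 against 159, 31 and 122 reads, with log2 fold changes of 0.27 ± 0.76 and -0.58 ± 0.71.

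A list of 13 genes, Casp2 and 12 that the study discussed at P7, was barely read at P14. Foxm1, Cdkn1a, E2f8, Mad2l1, Kif18a, Lin37, Trim39 and Gas5 were among the 9 with 0 reads in all 6 libraries. Bin1, of T-tubules, had 92, 2 and 1 reads in the control libraries and 0 in all 3 Casp2-depleted libraries (adjusted p = 0.384), Hes1 0 reads in all 3 control libraries and 63, 0 and 0 in the Casp2-depleted libraries (adjusted p = 0.384), and Dusp8 31, 0 and 0 reads in the control libraries and 0 in all 3 Casp2-depleted libraries (adjusted p = 0.391). Sqle had 4 reads in 1 control library. The list was chosen by the study on other libraries of this series, and 0 of its members were called here by edgeR, with 1 higher and 1 lower at an unadjusted p of 0.05.

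Markers of other heart cells summed to less than CM markers in each library of both groups. In CPM of the reads on genes, without TMM factors, the 12 CM markers summed to 54574, 16107 and 32759 CPM in the control libraries and 32429, 18914 and 21695 CPM in the Casp2-depleted libraries. The 12 endothelial markers summed to 402, 775 and 1482 CPM in the control libraries and 773, 783 and 772 CPM in the Casp2-depleted libraries. The fibroblast markers summed to 260 to 516 CPM over all 6 libraries, and the macrophage markers to 228 to 617 CPM. No difference between the groups in these sums passed an exact permutation test, two-sided (p = 0.6, 0.8, 0.9 and 0.3), where 3 against 3 libraries cannot go below 0.1. In the P1 and P7 libraries that the study kept, CM markers summed to 28054 to 97804 CPM and endothelial markers to 239 to 945 CPM. Fibroblast markers summed to 86.8 to 480 CPM there and macrophage markers to 98.3 to 450 CPM. By library the macrophage sums at P14 were 228, 584 and 325 CPM in the controls and 569, 617 and 490 CPM in the Casp2-depleted libraries. Every Casp2-depleted library and control replicate 2 thus lay above that macrophage range. Control replicate 2 and Casp2-depleted replicates 3 and 4 lay below that CM range. Control replicate 4 lay above the endothelial and fibroblast ranges. Fewer cells of a type and less RNA per cell cannot be told apart in such libraries.

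Of 12 fibroblast, 11 endothelial, 8 mural, 7 macrophage, 7 Schwann and neuronal, 6 epicardial and 9 atrial markers tested, 0 were called by edgeR. Sox10, of Schwann cells, had 0 reads in all 3 control libraries and 21, 31 and 88 in the Casp2-depleted libraries (adjusted p = 0.379). Krt8, of the epicardium, had 3, 25 and 165 reads in the control libraries and 0 in all 3 Casp2-depleted libraries (adjusted p = 0.349), and 3 of 6 epicardial markers were lower at an unadjusted p of 0.05. Of the globin genes, Hba-a1 and Hba-a2 had 0 reads, and Hbb-bs had 0, 3 and 23 against 0, 0 and 107 reads. The part of other cells in the differences above was not tested.

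A test of the difference between ages asked which of these changes were larger or smaller at P14 than earlier. At P7 and P1, 0 genes were called by edgeR between genotypes, with 860 (4.22%) and 1496 (7.34%) at an unadjusted p of 0.05. DESeq2 called 25 and 105, and limma-voom 0 and 49 after TMM and 1 and 63 after quantile scaling. For the P14 difference minus the P7 difference, 5 genes passed (0.0245%), namely Tnni1 upward (0.00491%) and Lig1, Pdgfa, Spaca6 and Psma4 downward (0.0196%). Against P1 13 passed (0.0638%), with Tnni1 upward (0.00491%) and 12 downward (0.0589%). The P14 libraries in these tests are those that gave the calls above, so the tests are no independent support for them.

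**Figure D5:**
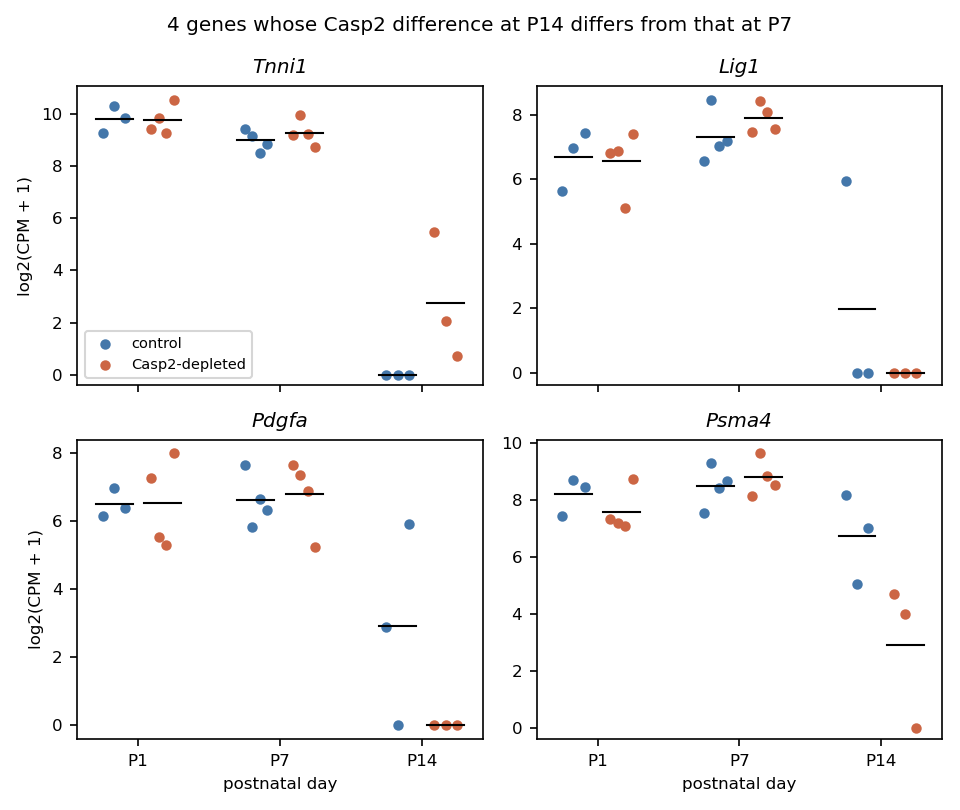
Log2(CPM + 1) of Tnni1, Lig1, Pdgfa and Psma4 (panels, y axis) at P1, P7 and P14 (x axis) in control and Casp2-depleted libraries, 21 in all. Points are libraries and black lines group means of log2(CPM + 1). The genotypes overlap at P1 and P7, and at P14 the Casp2-depleted libraries lie at 0 for Lig1 and Pdgfa and below every control for Psma4.

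At P7 each of the 5 genes had a higher mean CPM than at P14 in both genotypes. Lig1 had 182 ± 118 CPM in P7 controls and 247 ± 80.4 CPM in P7 Casp2-depleted nuclei (n = 4 each). Spaca6 had 217 ± 29.5 and 158 ± 87.7 CPM. Psma4 had 390.1 ± 184 and 474 ± 223 CPM. At P14 the contrast was between few reads and none for every one of the 5 except Psma4.

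The interaction for Tnni1 was 7.29 ± 1.09 (adjusted p = 5.18e-07) against P7 and 7.62 ± 1.10 (adjusted p = 9.82e-08) against P1, in log2 units. Those for Psma4 and Lig1 against P7 were -3.75 ± 0.83 (adjusted p = 0.0236) and -8.43 ± 1.51 (adjusted p = 0.000256). As one group is at 0 reads for Tnni1 and Lig1, their fitted sizes depend on the prior count and are no bound. Against P1, 3 genes passed that were not called at P14 itself, and they are named because they passed. Acadm, the medium-chain acyl-CoA dehydrogenase, had 86, 9 and 45 against 0, 3 and 0 reads at P14 (adjusted p = 0.138 there). Adrb1, the beta-1 adrenergic receptor, had 200, 21 and 2 against 12, 3 and 0 reads (adjusted p = 0.0565), and Ankrd10, an ankyrin repeat protein, had 131, 70 and 31 against 0, 0 and 14 reads (adjusted p = 0.0667).

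With the replicate block only Tnni1 still passed of the 5 genes against P7 and of the 13 against P1. Without Casp2-depleted replicate 2, Tnni1 passed neither (adjusted p = 0.271 against P7 and 0.136 against P1). Without control replicate 1, Lig1, Spaca6 and Psma4 no longer passed against P7. Pdgfa did not pass against P7 without control replicate 4, and Pdgfa and Spaca6 did not without Casp2-depleted replicate 3 or 4, nor Psma4 without Casp2-depleted replicate 4.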

How the data were processed

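RNA of PCM1-sorted CM nuclei was sequenced from 3′ ends (QuantSeq FWD, low-input protocol, 100 bp single-end reads). Per the labels and the methods of the study, the authors trimmed the reads with cutadapt 4.0, aligned them to GRCm39 with STAR 2.6.1e and counted them over whole genes with HTSeq 2.0.3. The deposited values are raw counts per gene, not normalized. Intronic reads count, and whether strand was used is not stated, so genes that overlap on opposite strands cannot be told apart (Mhrt and Myh7, for example). Reads on no gene, 63.7 to 76.1% of those in the 6 libraries, stayed out of library sizes and tests. The replicates are separate pools, of 15 hearts at P1, 6 at P7 and 2 at P14. Gene p-values of the main fit measure the spread between pools of all 3 ages, not that between P14 pools alone. Gene names came from GENCODE vM39 (56236 of 56923 identifiers, 99.5% of reads).

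Groups followed the labels. Counts of 21 libraries were fitted with edgeR 4.0.16 in R 4.3.3 (TMM, 6 group means, robust glmQLFit, 15 residual degrees of freedom) for genes with at least 10 reads in all and reads in at least 3 libraries. A call needed a p below 0.05 after Benjamini-Hochberg adjustment together with a change of more than 1 log2 unit. The standard error is the log2 value divided by the square root of F. The biological coefficient of variation was 1.50. Differences of single library values were tested by exact permutation, two-sided (scipy 1.17.1). Alternatives used DESeq2 1.42.0 and limma 3.58.1. The fit was tested on simulated counts.

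Named are the members of the PIDDosome and p53, P7, sarcomere isoform and sex-linked lists, the 10 largest called rises and falls (filled up with the smallest p at a mean of at least 20 CPM without overlap), the 4 most-read and any called members of the other lists, the 5 leading interaction genes and the 10 most-read genes. Not all of these are printed, and 1 called gene is not reported here. The libraries, members and lists were chosen with earlier results of these data known.

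Replicate numbers are called batches in the file names. Same-numbered libraries' deviations from the group means correlated at -0.099 to 0.279 over 9 pairs (median 0.12), and at -0.24 to 0.181 over 28 pairs with other numbers (median -0.014). The 2 pairs at P14 gave -0.014 and 0.013.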

Additional observations from a re-analysis of the deposited data

Results flagged for a closer look

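Genes whose P14 difference between the genotypes differed from that at P7 or P1, by edgeR's test of the difference itself, are given here in log2 units. Against P7 the differences were 7.29 for Tnni1, -8.43 for Lig1, -8.35 for Pdgfa, -6.74 for Spaca6 and -3.75 for Psma4. Against P1 they were 7.62 for Tnni1, -7.45 for Spaca6, -7.88 for Lig1, -8.50 for Pdgfa, -5.55 for 5430431A17Rik, -7.86 for Man2a2, -5.74 for Rsrp1 and -10.97 for Myoz2. They were -6.53 for Zranb2, -9.04 for Acadm, -10.28 for Hnrnpl, -6.20 for Ankrd10 and -5.56 for Adrb1. Those of genes with 0 reads in a P14 group depend on the prior count and are no bound. Of the genes listed here, only Tnni1 and Pdgfa passed in either contrast without control replicate 1, and only Tnni1 with the replicate block. Without that library 10 genes passed against P7, 9 of them upward, and 9 against P1, and 2 in each contrast were among those listed.

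In the sum of the erythroid markers, 1 library stood apart from the 3 others of its genotype at P14, counting those set aside. It reached 26.9 CPM in control replicate 4 and 109.6 CPM in Casp2-depleted replicate 4. The other libraries had 0 to 12.0 CPM. Chance alone marks about 1 in 20 such groups.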

How the results depend on the processing

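The main count of 34 P14 genes moved with most choices. It was 662 with DESeq2, 116 and 148 with limma-voom after TMM and quantile scaling, 3 with filterByExpr, 15 with no filter, 13 with the replicate block, 1 with only the 6 P14 libraries and 0 with all 8. It was 26 with DESeq2 size factors or thinned reads, all of them among the 34, and 29 with all 24 libraries, of which 8 were. When 1 P14 library was left out it was 19 to 166, of which 6 to 33 were among the 34. Of alternatives added after seeing the data, moderation without the robust option gave 47 calls, a term for the share of reads outside genes 24, and the number of genes detected as a term 81. The limma-voom medians over all genes shifted to -0.16 and -0.27, and the fits of 8 and 6 P14 libraries and of the block to 0.30, 0.12 and 0.13. The split of higher to lower was 6 to 28 in the main fit, 340 to 322 with DESeq2, 76 to 40 and 84 to 64 with limma-voom, 99 to 67 without control replicate 2, 12 to 7 without control replicate 1, 16 to 123 without Casp2-depleted replicate 2 and 8 to 12 without Casp2-depleted replicate 4.

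Against P7, the 5 genes became 246 with DESeq2, 0 with filterByExpr, 2 with the block, and 6 to 47 with a library left out. Against P1, the 13 became 403 with DESeq2, 24 and 31 with limma-voom, 6 with DESeq2 size factors, with no filter and with all 24 libraries, 3 with filterByExpr, 1 with the block, and 9 to 113 with a library left out. Called list members went from 8 to 48 with DESeq2, 1 with filterByExpr, 4 with no filter, 3 with all 24 libraries, 3 with the block, 0 with only the 6 P14 libraries or all 8, and 3 to 23 with a library left out. The group difference in genes detected, 740.3, ranged from -535 to 2476. With 24 libraries Rsrp1, Rdx and Rev3l turned upward (2.82, 0.70 and 2.20). With a library left out, Rnpc3 ran from -8.62 to 1.91 and Zranb2 from -7.08 to 1.91 (upward without control replicate 1), and Ptma from -2.09 (without Casp2-depleted replicate 3) to 7.42. The cause was not tested. Fits without 1 library still pool the spread over all groups. Libraries of the same replicate number share no animals or stated day. Their deviations correlated at -0.014 and 0.013 in the 2 pairs at P14, at 0.087 to 0.279 at P7 and at -0.099, 0.150 and 0.190 at P1. Whether the number marks a batch was not tested. The block kept Grb10, Tnni1, Ivd, Pdgfa, Rdx, Psma4, Ythdc1, Lig1 and 5430431A17Rik. Depth limits genes with few reads, where 3 reads equal 2.35 to 3.36 CPM.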
